A study of Mus musculus with 12 samples.

Results

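A set of 9 genes of zinc, copper and iron handling was followed in the mouse osteocyte-like cell line Ocy454 treated with fibroblast growth factor 2 (FGF2) and with BGJ398, an inhibitor of the FGF receptor kinases. Its members are the metallothioneins Mt1 and Mt2, the zinc exporter Slc30a1, the zinc sensor Mtf1, the ferroxidase Cp, the transferrin receptor Tfrc, the iron exporter Slc40a1, the ferritin heavy chain Fth1 and the heme oxygenase Hmox1. These 9 genes, of 35214 measured and 12542 tested, were chosen by name from metal-handling genes, and the choice used the higher read levels of Mt1, Mt2 and Cp with FGF2. All 9 passed the filter on low counts in the test across all genes. The cells were grown at 33 °C, differentiated for 5 days at 37 °C, pretreated for 1 h with 200 nM BGJ398 or its vehicle dimethyl sulfoxide (DMSO), and then treated for 48 h, until differentiation day 7. The 4 groups of 3 libraries were DMSO, DMSO with 2 ng/mL FGF2 (DMSO+FGF2), BGJ398, and BGJ398 with 2 ng/mL FGF2 (BGJ398+FGF2). All 12 libraries were of 1 cell line.

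Metallothioneins are small cysteine-rich proteins that bind zinc and copper ions, and their genes are known to be switched on by zinc through the transcription factor MTF1, which binds short metal response elements in DNA. The zinc exporter Slc30a1 (ZnT1) is another known target of MTF1. Ceruloplasmin is a copper-containing oxidase that converts ferrous to ferric iron, so that iron leaving a cell through the exporter ferroportin (Slc40a1) can be bound by transferrin. Cells take up transferrin-bound iron through Tfrc, store it in ferritin, of which Fth1 is one subunit, and release it from heme with Hmox1. Iron regulatory proteins bind iron-responsive elements, stem-loops in messenger RNA, and through them limit the translation of ferritin and ferroportin and stabilise the Tfrc message when iron is scarce.

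Libraries held 18951710 to 27716975 reads. Of 13 osteoblast and osteocyte markers, the osteocyte genes Sost and Mepe had 0 reads in all 12 libraries and Dmp1 averaged 0.161 CPM (reads scaled to the TMM-adjusted library size) in DMSO, while the collagen gene Col1a1 averaged 9485 CPM there. The summed markers ran from 17375 to 18431 CPM in DMSO and from 11615 to 13756 CPM in DMSO+FGF2. Of 10 markers tested, 7 were lower and 2 higher with FGF2 in DMSO (edgeR, adjusted p under 0.05, 90% against 13.4% of all genes). Macrophage markers summed to 5.43 to 5.61 CPM in DMSO but to 8.66 to 10.9 CPM where FGF2 was added to it, with 2 of 8 at 0 throughout. The higher sum was not shared by most of them. Of 4 macrophage markers tested, 1 was higher and 0 lower with FGF2 in DMSO (edgeR, adjusted p under 0.05, 13.4% of all genes). The median log2 change of the 4 was −0.24. Of hepatocyte markers 4 of 6 were at 0, endothelial markers summed to at most 0.353 CPM, and 2 of 7 erythroid markers were at 0. The summed erythroid markers ran from 2.53 to 3.45 CPM in DMSO and were higher, without overlap, in DMSO+FGF2 at 3.79 to 4.35 CPM. They ran from 1.96 to 3.37 CPM with BGJ398 and from 2.17 to 3.07 CPM with BGJ398+FGF2. Only 2 erythroid markers had enough reads to be tested, and 0 of them passed with FGF2 in DMSO. Libraries of DMSO and DMSO+FGF2 did not overlap for 37.6% of all genes tested. The part of these markers in the results was not tested. In bulk RNA, fewer cells of a kind and less RNA per cell cannot be told apart.

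In 3 libraries reads fell more on short genes than in the other libraries of their groups. BGJ398 replicate 1, DMSO+FGF2 replicate 2 and BGJ398+FGF2 replicate 2 had deviations from their group means that fell with effective transcript length over 12542 genes (Spearman rho −0.31, −0.38 and −0.58). The other libraries with FGF2 or BGJ398 had rho of 0.20 to 0.54, and the DMSO libraries −0.07 to 0.08. Metallothionein messages are short, and Mt1 lay 0.23, 0.18 and 0.33 above its group mean on the log2 scale in those 3 libraries, and Mt2 0.12, 0.12 and 0.42. Values without these 3 libraries, a choice made after seeing the data, are given beside the results they bear on most. Their omission leaves fewer libraries in the BGJ398, DMSO+FGF2 and BGJ398+FGF2 groups. It also lowers the spread of genes that deviated in them, so smaller SEs and added calls there can come from the choice itself. Deviations from a group mean balance out within the group, so they cannot say which library of a group is off. In BGJ398+FGF2, replicate 3 lay about as far to the other side as replicate 2 (rho 0.54, with Mt2 at −0.35).

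**Figure D1:**
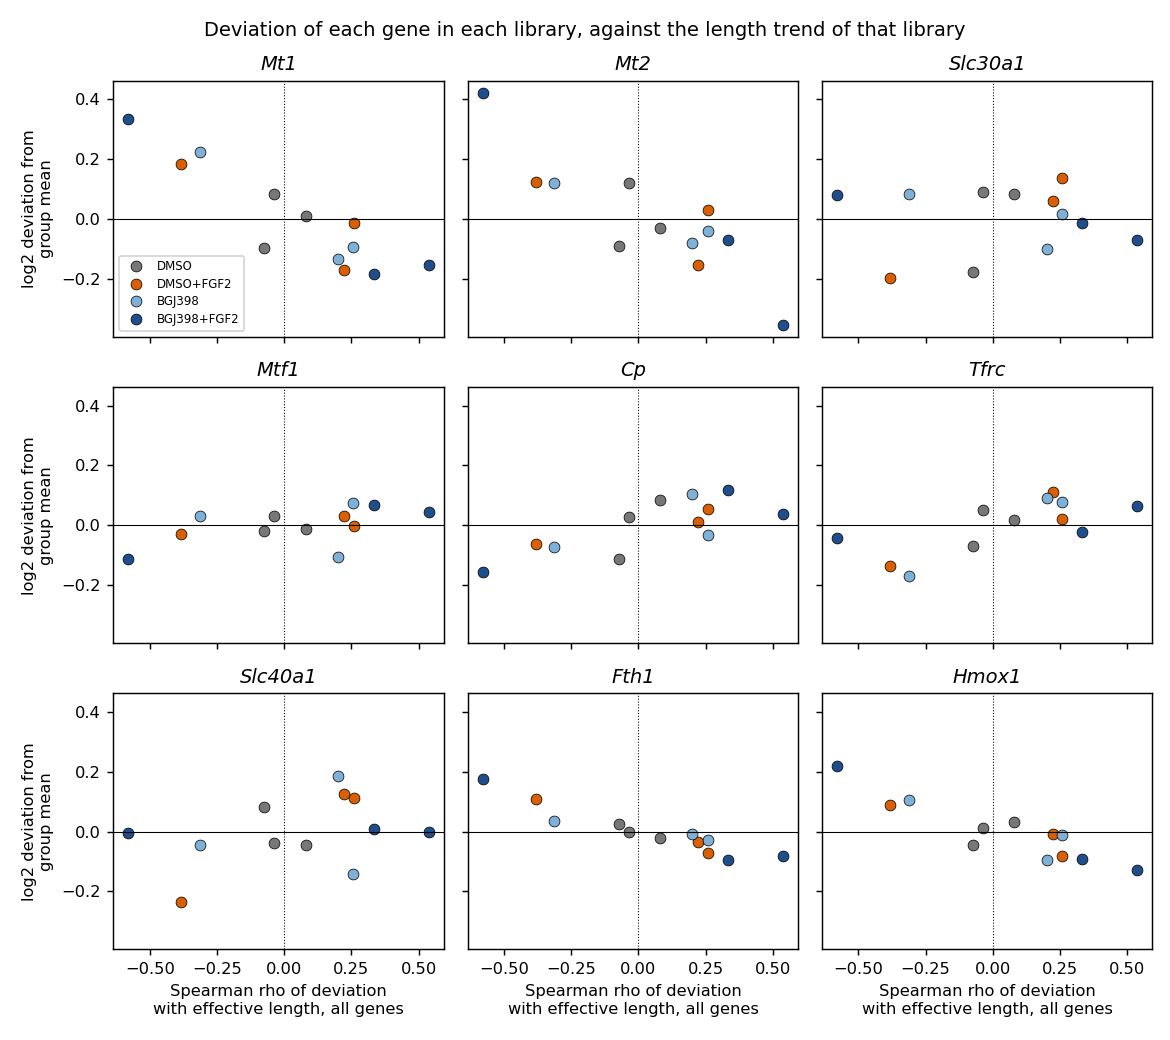
Log2 deviation of each gene from its group mean (vertical axis) in each of 12 libraries, against the Spearman rho between the deviation and the effective length of 12542 genes in that library (horizontal axis). Points are libraries, coloured by group. In the 3 libraries at rho −0.31, −0.38 and −0.58, Mt1, Mt2, Fth1 and Hmox1 lay above their group means.

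Promoter letters were compared because Mt1, Mt2 and Slc30a1 are named above as targets of one zinc sensor. The 250 bases before the annotated start came from RefSeq (build GRCm38.p6), in which 7 of the 9 genes had an entry, in 10 windows. Slc40a1 and Hmox1 had none. Matches to the metal response element, spelled TGCACNC or TGCGCNC on either strand, are in capitals, and each sequence is written 5′ to 3′ on the strand of its gene, which is the plus strand for all of them.
Mt1, chr8:94178839-94179088: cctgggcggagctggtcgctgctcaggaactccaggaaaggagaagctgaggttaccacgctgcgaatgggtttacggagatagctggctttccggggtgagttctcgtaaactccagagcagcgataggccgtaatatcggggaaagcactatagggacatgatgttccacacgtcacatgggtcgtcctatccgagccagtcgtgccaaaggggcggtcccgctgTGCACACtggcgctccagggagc
Mt2, chr8:94172368-94172617: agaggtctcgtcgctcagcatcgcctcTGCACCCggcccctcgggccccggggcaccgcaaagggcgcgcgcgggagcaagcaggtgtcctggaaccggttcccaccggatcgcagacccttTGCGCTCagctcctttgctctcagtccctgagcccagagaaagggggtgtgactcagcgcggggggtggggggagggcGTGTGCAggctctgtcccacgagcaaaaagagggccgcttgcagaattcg
Slc30a1, chr1:191906531-191906780: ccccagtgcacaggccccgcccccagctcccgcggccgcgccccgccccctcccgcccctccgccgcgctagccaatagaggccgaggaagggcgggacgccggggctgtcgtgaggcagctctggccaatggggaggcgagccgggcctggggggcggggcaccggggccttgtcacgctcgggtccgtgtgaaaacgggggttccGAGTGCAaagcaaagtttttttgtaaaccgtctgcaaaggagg

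The Mt2 window held 3 matches to the metal response element, which 1.26% of 32851 windows equalled or passed. The Mt1 and Slc30a1 windows each held 1 match, as did 21.4% of windows at least once. With the 50 bases after the start included, Mt1 had 3 matches, Mt2 had 4 and Slc30a1 had 2. Of the 3 in Mt1, 2 reached past the annotated start, so its count depends on where the start is set. Among all such windows 7.11% held 2 or more, 1.97% held 3 or more and 0.517% held 4 or more. One of the 2 Tfrc windows held 2 overlapping matches, and the windows of Mtf1, Cp and Fth1 held 0. The letters TGACNNNGC of the antioxidant response element occurred once each in Mt2 and Slc30a1 (10.2% of windows). The letters ACGTG of the hypoxia response element occurred once in Mt1 and once in a Tfrc window (16.6%). A match is a run of letters and not a measured binding site.

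**Figure D2:**
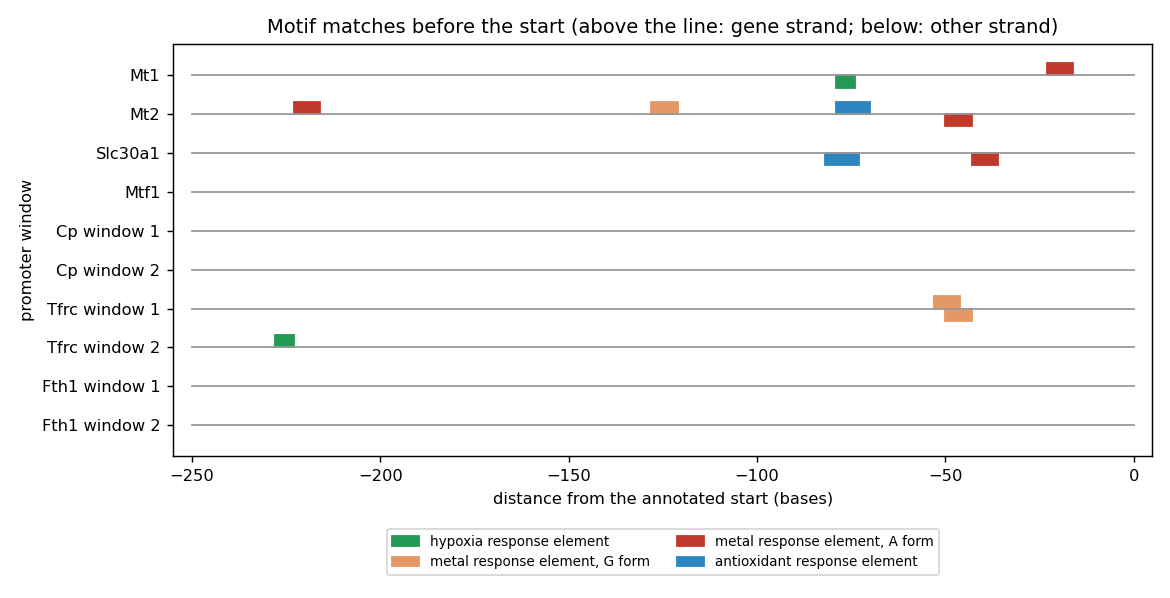
Matches to 3 kinds of element in the 250 bases before the annotated start (horizontal axis, bases from the start) in 10 promoter windows of 7 genes. Boxes above a line are on the gene's strand and boxes below it on the other. Mt2 holds 3 metal response element matches, and Mt1 and Slc30a1 hold 1 each.

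Iron-responsive element letters were searched in the untranslated parts of reference transcripts (GENCODE M21, build GRCm38), since they mark which of the genes carry the known stem-loop. The search took C, 5 stem bases, a CAGTGN loop and 5 bases that pair with the stem, and 175 of 21479 genes (0.815%) held it. Among the 9 genes it was found in Fth1, Slc40a1 and Tfrc, with the loop in capitals and each site given 5′ to 3′ on the transcript.
Fth1-201, 5′ untranslated: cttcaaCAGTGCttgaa
Slc40a1-201, 5′ untranslated: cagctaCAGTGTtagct
Tfrc-201, 3′ untranslated, site 1: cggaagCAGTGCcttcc
Tfrc-201, 3′ untranslated, site 2: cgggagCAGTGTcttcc
Tfrc-201, 3′ untranslated, site 3: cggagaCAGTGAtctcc
Tfrc-201, 3′ untranslated, site 4: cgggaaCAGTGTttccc

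Levels of the 9 genes were compared with one another per length, as TPM (reads scaled to transcript length and library size) averaged over 12 libraries. Fth1 was highest at 3235 TPM, followed by Mt1 at 1629 and Mt2 at 239 TPM. Hmox1 stood at 108, Tfrc at 44.2 and Cp at 37.8 TPM. Mtf1 at 11.8, Slc40a1 at 10.9 and Slc30a1 at 4.92 TPM were lowest. The other metallothioneins, Mt3 and Mt4, had 0 reads in every library, against a limit of 3 reads, or 0.109 to 0.159 CPM per library before TMM scaling, which covers counting error only.

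In DMSO, 5 of the 9 genes passed the threshold (Benjamini-Hochberg adjusted p of 0.05, edgeR) as higher with FGF2, where 7.57% of all genes tested did, and 0 passed as lower (5.82%). The contrast was used to choose them, so these counts and the values of all 9 in it are a description. Libraries of the 2 groups did not overlap for 8 of the 9 genes, against 37.6% of all genes. Of these 7 were higher (19.2% of all genes) and 1 lower (18.4%). With FGF2 under BGJ398, a comparison that shares no library with that choice, 0 of the 9 genes passed, 0% of all genes did, and none of the 9 had an unadjusted p under 0.05 (the smallest was 0.174, Tfrc). Across all genes, 325 had an unadjusted p under 0.05 there, and DESeq2 called 5 and limma-voom 0. Libraries did not overlap for 0 of the 9 with FGF2 under BGJ398 (6.31% of all genes), 4 of 9 with BGJ398 alone (17.2%) and 6 of 9 with BGJ398 in the presence of FGF2 (34.8%). The last 2 comparisons share the DMSO or the DMSO+FGF2 libraries with the choice of genes. Cp is among the 4, and Mt1, Mt2 and Cp are among the 6, so both counts are a description as well. The FGF2 change differed between DMSO and BGJ398, by the interaction test, for 4.24% of all genes. The median log2 change of the 9 was 0.24 with FGF2 in DMSO and 0.08 under BGJ398, where the medians of all genes were −0.0037 and 0.00049.

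**Figure D3:**
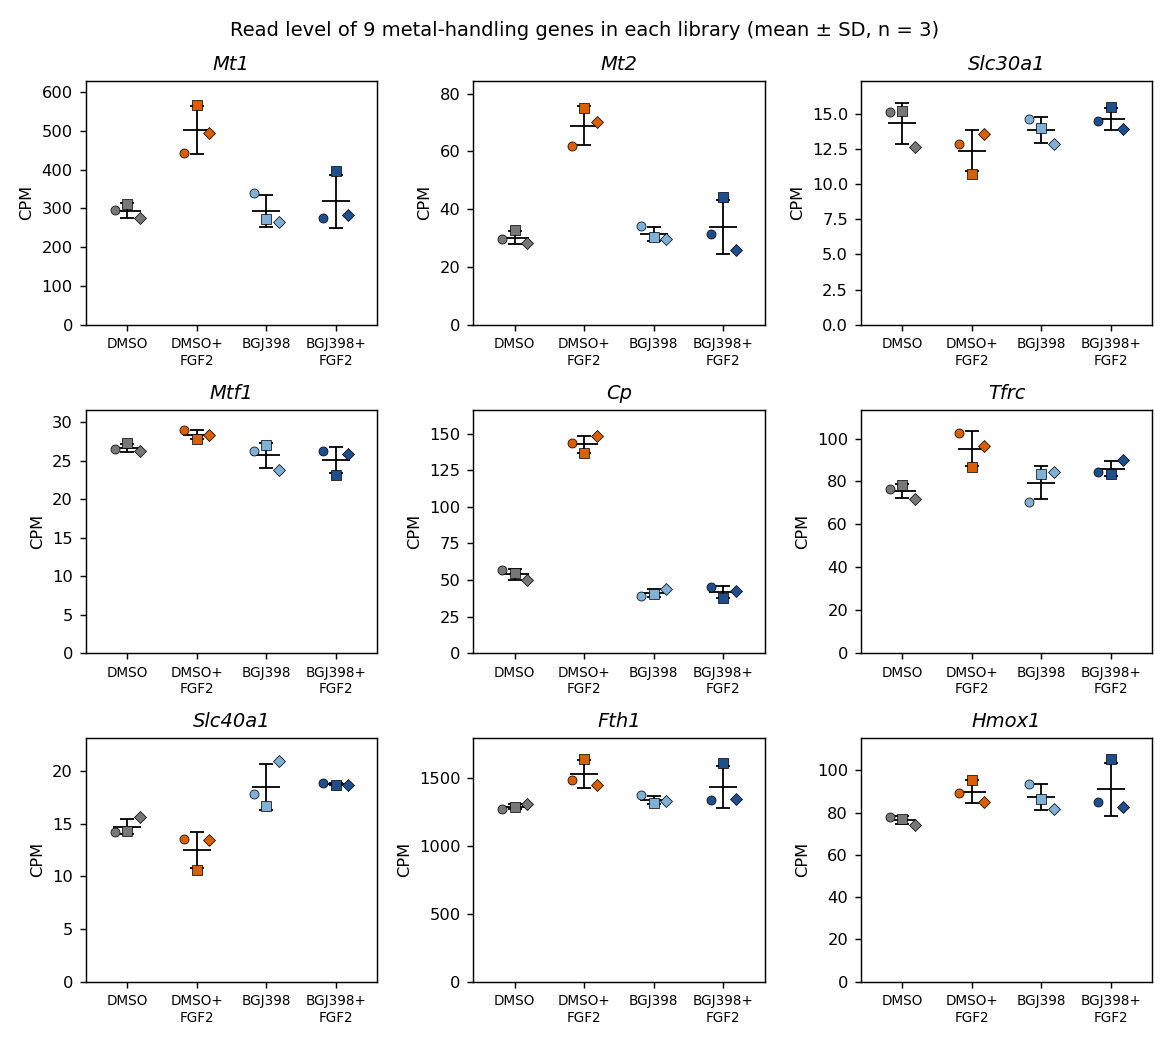
CPM of each of the 9 genes (vertical axes, starting at 0) in the 12 libraries by group. Circles, squares and diamonds are replicates 1, 2 and 3, and bars are the mean ± SD (n = 3). Mt1, Mt2 and Cp lay higher in all 3 DMSO+FGF2 libraries than in the other 9.

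Mt1 reads stood at 296, 312 and 275 CPM in the 3 DMSO libraries and at 443, 566 and 494 CPM in DMSO+FGF2. With BGJ398 they were 340, 273 and 265 CPM, and with BGJ398+FGF2 276, 395 and 282 CPM. All 3 DMSO+FGF2 libraries were above all 9 others, and the other 3 groups overlapped. The fitted log2 change with FGF2 was 0.77 ± 0.14 (SE), or 1.70-fold (95% interval 1.39 to 2.08), in DMSO. Under BGJ398 it was 0.12 ± 0.13, with a 95% interval of −0.17 to 0.41 (edgeR, adjusted p = 1). Without the 3 libraries that were high in short genes these changes were 0.67 ± 0.05 and 0.05 ± 0.06, and without BGJ398+FGF2 replicate 2 alone the value under BGJ398 was −0.07. The log2 difference of BGJ398+FGF2 from DMSO+FGF2 was −0.66 ± 0.13, and −0.75 ± 0.06 without the 3 libraries, and BGJ398 differed from DMSO by −0.01 ± 0.13.

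Mt2 was the lower of the pair and moved further. Its reads stood at 29.5, 32.7 and 28.3 CPM in DMSO and at 61.8, 74.9 and 70.1 CPM in DMSO+FGF2. With BGJ398 they were 34.1, 30.5 and 29.7 CPM, and with BGJ398+FGF2 31.5, 44.3 and 25.8 CPM. The DMSO+FGF2 libraries were again above all 9 others, and the highest of the rest was BGJ398+FGF2 replicate 2. The log2 change with FGF2 was 1.19 ± 0.15 in DMSO, or 2.28-fold (95% interval 1.83 to 2.84), and 0.10 ± 0.15 under BGJ398, with an interval of −0.22 to 0.43 (edgeR, adjusted p = 1). Without BGJ398+FGF2 replicate 2 the value under BGJ398 was −0.13 and without all 3 libraries −0.07 ± 0.10. The log2 difference of BGJ398+FGF2 from DMSO+FGF2 was −1.03 ± 0.15, and −1.20 ± 0.10 without the 3 libraries.

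Mt2 took a larger share of metallothionein message with FGF2 in DMSO. Its part of the summed Mt1 and Mt2 TPM was 11.2%, 11.6% and 11.7% in DMSO and 14.9%, 14.2% and 15.3% in DMSO+FGF2. With BGJ398 it was 11.3%, 12.2% and 12.5%, and with BGJ398+FGF2 12.7%, 12.1% and 10.7%. The DMSO+FGF2 libraries did not overlap with any other group. Of the 573 stretches of 31 bases in Mt2 transcripts 58.1% also occur in transcripts of other genes, Gm45774 and Pip5k1a. Gm45774 is antisense to Mt2 and was not analysed here. The counting is not stated to use strand, so reads of the pair cannot be told apart, while Mt1 shared 0 such stretches.

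The zinc exporter and the zinc sensor moved little. Slc30a1 reads stood at 15.1, 15.2 and 12.6 CPM in DMSO. With DMSO+FGF2 they were 12.9, 10.7 and 13.6 CPM, with BGJ398 12.9 to 14.6 CPM, and 14.5, 15.4 and 13.9 CPM with BGJ398+FGF2. The 2 groups without inhibitor overlapped, and the log2 change with FGF2 was −0.21 ± 0.11 there and 0.08 ± 0.11 under BGJ398 (interval −0.15 to 0.31, edgeR adjusted p = 1). BGJ398+FGF2 exceeded DMSO+FGF2 in every library, by 0.24 ± 0.11 on the log2 scale, which did not pass (adjusted p = 0.129). Mtf1 reads ran from 26.3 to 27.2 CPM in DMSO, 27.8 to 29.0 in DMSO+FGF2, 23.8 to 27.0 with BGJ398 and 23.1 to 26.2 with BGJ398+FGF2. Its log2 change with FGF2 was 0.09 ± 0.07 in DMSO and −0.03 ± 0.07 under BGJ398 (interval −0.19 to 0.12), and BGJ398+FGF2 lay 0.18 ± 0.07 below DMSO+FGF2 (edgeR, adjusted p = 0.0864).

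Of 14 other zinc transport genes tested, 2 rose and 0 fell with FGF2 in DMSO (14.3%, against 13.4% of all genes), and the median log2 change of the 14 was 0.01. Slc39a13, a zinc importer of the Golgi and endoplasmic reticulum known for its role in connective tissue, rose from 67.2 to 88.8 CPM (log2 change 0.40 ± 0.06, edgeR adjusted p = 0.000799). The plasma membrane importer Slc39a1 rose by 0.24 ± 0.06 (adjusted p = 0.0244), a call lost without any one of DMSO replicates 1, 2 and 3 or DMSO+FGF2 replicate 2 (adjusted p up to 0.125). With FGF2 present, BGJ398 lowered Slc39a13 by 0.42 ± 0.06 (adjusted p = 0.000456) and raised the importer Slc39a10 by 0.44 ± 0.10 (adjusted p = 0.00585). In that comparison 3 of the 14 rose and 2 fell (35.7%, against 22.2% of all genes). It shares the 3 DMSO+FGF2 libraries with FGF2 in DMSO, so opposite signs in these 2 comparisons are not independent, here and for the lists that follow. Under BGJ398, FGF2 left 0 of the 14 past the threshold.

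Ceruloplasmin showed the largest change of the 9 genes. Cp reads stood at 57.2, 54.9 and 49.8 CPM in DMSO and at 144, 137 and 148 CPM in DMSO+FGF2. With BGJ398 they were 39.1, 40.2 and 44.2 CPM, and with BGJ398+FGF2 45.3, 37.5 and 42.8 CPM. The DMSO+FGF2 libraries lay above all others, and both BGJ398 groups lay below all 3 DMSO libraries and overlapped each other. The log2 change with FGF2 was 1.41 ± 0.08 in DMSO, or 2.65-fold (95% interval 2.36 to 2.97), and 0.03 ± 0.08 under BGJ398, with an interval of −0.15 to 0.20 (edgeR, adjusted p = 1). BGJ398 alone lay 0.39 ± 0.08 below DMSO on the log2 scale. BGJ398+FGF2 lay 1.77 ± 0.08 below DMSO+FGF2. Without the 3 libraries high in short genes the FGF2 changes were 1.44 ± 0.06 and 0.06 ± 0.07.

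**Figure D4:**
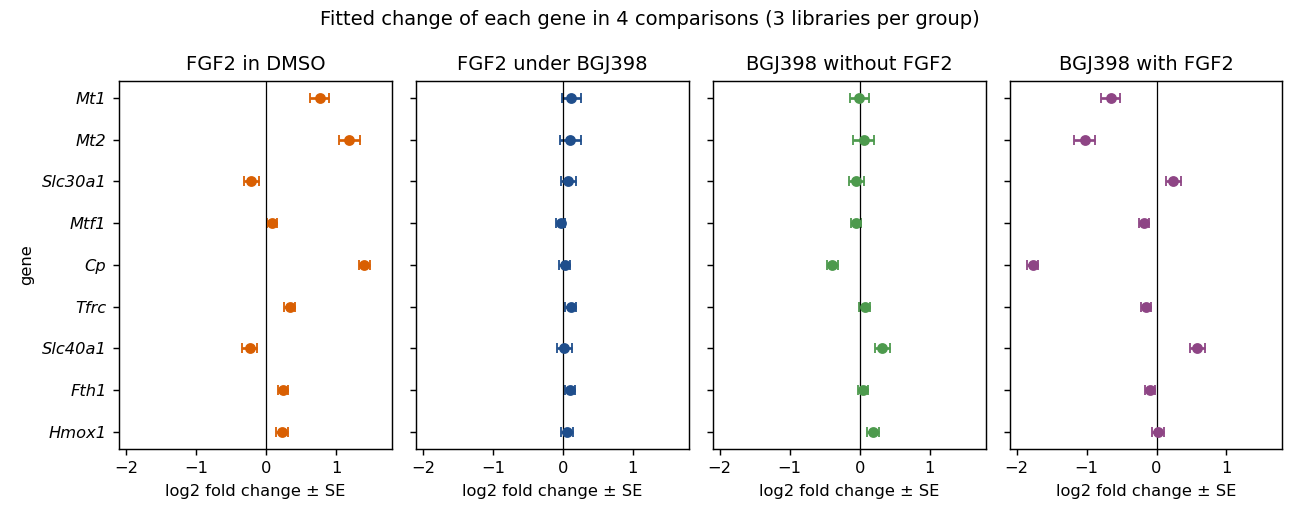
Log2 fold change ± SE of each of the 9 genes (horizontal axes) in 4 comparisons from the fit to 12 libraries. With FGF2 in DMSO the values run from −0.23 to 1.41, and under BGJ398 from −0.03 to 0.12. With FGF2 present, BGJ398 lies lowest at Cp (−1.77) and highest at Slc40a1 (0.58).

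Among 18 other copper genes tested, 1 rose and 0 fell with FGF2 in DMSO (5.56%, against 13.4% of all genes). It was Lox, which makes the copper enzyme lysyl oxidase that cross-links collagen, with a mean of 411 CPM in vehicle and 478 CPM with FGF2 (log2 change 0.22 ± 0.06, edgeR adjusted p = 0.0301). Lox was also the only one of the 18 past the threshold for BGJ398 without FGF2, at 0.39 ± 0.06 (adjusted p = 0.0174, where 0.327% of all genes passed). Both calls were lost without any one of 5 libraries. For FGF2 in DMSO these were DMSO replicates 1, 2 and 3 and DMSO+FGF2 replicates 1 and 3 (adjusted p up to 0.118). For BGJ398 they were DMSO replicates 1, 2 and 3 and BGJ398 replicates 2 and 3 (adjusted p up to 0.130). With FGF2 present, BGJ398 raised 0 and lowered 3 of the 18 (16.7%, against 22.2% of all genes), among them the lysyl oxidase relatives Loxl3 (−0.46 ± 0.07, adjusted p = 0.000422) and Loxl4 (−0.36 ± 0.06, adjusted p = 0.00154).

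Iron uptake genes were higher with FGF2 in DMSO more often than lower. Tfrc reads stood at 76.3, 78.2 and 71.9 CPM in DMSO and at 103, 86.6 and 96.5 CPM in DMSO+FGF2, without overlap. With BGJ398 they were 70.4, 83.6 and 84.3 CPM, and with BGJ398+FGF2 84.5, 83.4 and 89.8 CPM. The log2 change with FGF2 was 0.34 ± 0.08 in DMSO and 0.11 ± 0.08 under BGJ398, with an interval of −0.06 to 0.28 (edgeR, adjusted p = 1). BGJ398+FGF2 lay 0.15 ± 0.08 below DMSO+FGF2 (adjusted p = 0.194), and without the 3 libraries high in short genes 0.20 ± 0.05 below it (adjusted p = 0.0119).

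Of 8 other iron uptake genes tested, 5 rose and 1 fell with FGF2 in DMSO, where 13.4% of all genes passed in either direction, and the median log2 change of the 8 was 0.30. The STEAP family genes Steap1 and Steap3 rose by 0.87 ± 0.13 (edgeR adjusted p = 0.000608) and 0.34 ± 0.08 (adjusted p = 0.00902). The divalent metal importer Slc11a2 rose from 73.4 to 91.7 CPM (0.32 ± 0.06, adjusted p = 0.00409), and its call was lost when TPM scaled by length replaced the counts (adjusted p = 0.491). Tfr2, a sensor of transferrin-bound iron, rose by 0.27 ± 0.06 (adjusted p = 0.0120), a call lost without DMSO replicate 2 or DMSO+FGF2 replicate 3 and with TPM scaled by length (adjusted p up to 0.0631). The partner of Tfrc called Hfe rose by 0.54 ± 0.15 (adjusted p = 0.0263), a call lost without any one of 5 of the 6 libraries, all but DMSO+FGF2 replicate 1, and with TPM scaled by length (adjusted p up to 0.119). The ferritin receptor Scara5 was the 1 that fell, by 0.66 ± 0.19 (adjusted p = 0.0321), from 3.20 to 2.02 CPM, and it is named here after its values were seen. Its call was lost without any one of the 6 libraries compared and with TPM scaled by length (adjusted p up to 0.115). With FGF2 under BGJ398 0 of the 8 passed, and with BGJ398 in the presence of FGF2 62.5% of the 8 did, against 22.2% of all genes. With FGF2 present, BGJ398 lowered 4 of the 8, among them Steap1 (−0.79 ± 0.13, adjusted p = 0.00105) and Tfr2 (−0.33 ± 0.06, adjusted p = 0.00227), and raised Scara5 (0.72 ± 0.19, adjusted p = 0.0151), a call lost without replicate 1 of DMSO+FGF2 or of BGJ398+FGF2 (adjusted p up to 0.0640).

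The iron exporter Slc40a1 was slightly lower with FGF2 in DMSO, where Cp and Tfrc were higher. It was higher with BGJ398 in the presence of FGF2, where Cp was lower. Tfrc libraries overlapped there, and its difference of −0.15 ± 0.08 did not pass (edgeR adjusted p = 0.194). Slc40a1 reads stood at 14.3, 14.3 and 15.6 CPM in DMSO. With DMSO+FGF2 they were 13.6, 10.6 and 13.5 CPM. They were 17.8, 16.7 and 20.9 CPM with BGJ398, and 18.9, 18.7 and 18.7 CPM with BGJ398+FGF2. All 6 libraries with BGJ398 lay above all 6 without it. Slc40a1 rose by 0.58 ± 0.11 with BGJ398 in the presence of FGF2 (95% interval 1.27-fold to 1.76-fold, edgeR adjusted p = 0.00193, where 10.8% of all genes rose). It was the only one of the 6 genes tested there that passed, and the call held in all 21 other settings (adjusted p up to 0.0162). Without FGF2 the change with BGJ398 was 0.33 ± 0.11 (adjusted p = 0.352). The log2 change with FGF2 was −0.23 ± 0.11 in DMSO and 0.02 ± 0.11 under BGJ398 (interval −0.21 to 0.25). Without the 3 libraries high in short genes the change in DMSO was only −0.13 ± 0.10. The lowest DMSO+FGF2 library, replicate 2 at 10.6 CPM, is among those left out.

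The ferritin heavy chain was the most abundant of the 9 messages. Fth1 reads stood at 1271, 1290 and 1314 CPM in DMSO and at 1491, 1646 and 1452 CPM in DMSO+FGF2, without overlap. With BGJ398 they were 1374, 1315 and 1334 CPM, and with BGJ398+FGF2 1339, 1616 and 1351 CPM. The log2 change with FGF2 was 0.24 ± 0.07 in DMSO and 0.10 ± 0.07 under BGJ398, with an interval of −0.06 to 0.25 (edgeR, adjusted p = 1). BGJ398+FGF2 lay 0.09 ± 0.07 below DMSO+FGF2 (adjusted p = 0.395), and without BGJ398+FGF2 replicate 2 the difference was −0.19 ± 0.05 and passed (adjusted p = 0.0232). Without the 3 libraries high in short genes it was −0.13 ± 0.03 and passed (adjusted p = 0.0096). Fth1 lay 0.04, 0.11 and 0.18 above its group mean on the log2 scale in those 3 libraries, so their omission also narrows its spread. Its partner Ftl1, the ferritin light chain, had a mean of 2358 CPM with vehicle and 2902 CPM with FGF2 added (log2 change 0.30 ± 0.10, adjusted p = 0.0598), and is named here after its values were seen. Of the 5 other tested genes of iron storage, export and delivery, 0 passed in any of the 5 comparisons.

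Of 6 iron sensing genes tested, 2 rose and 2 fell with FGF2 in DMSO (66.7%, against 13.4% of all genes). Tfr2 and Hfe, which stand in both lists, are the 2 that rose. The neogenin gene Neo1 fell by 0.43 ± 0.08 (edgeR adjusted p = 0.00244), from 198 to 147 CPM. Aco1, which makes iron regulatory protein 1 when it lacks its iron-sulfur cluster, fell by 0.21 ± 0.06 (adjusted p = 0.0334), a call lost without any one of the 6 libraries compared and with TPM scaled by length (adjusted p up to 0.143). Of 14 genes of mitochondrial iron and iron-sulfur clusters, 0 passed with FGF2 in DMSO.

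Hmox1, the enzyme that frees iron from heme, was higher in every group than in DMSO. Its reads stood at 78.2, 77.2 and 74.2 CPM in DMSO. With DMSO+FGF2 they were 89.2, 95.6 and 84.9 CPM. They were 93.8, 86.5 and 81.7 CPM with BGJ398, and 85.0, 105 and 82.8 CPM with BGJ398+FGF2. Each of the 3 treated groups lay above all DMSO libraries, and the 3 overlapped one another. The log2 change with FGF2 was 0.23 ± 0.09 in DMSO and 0.06 ± 0.09 under BGJ398 (interval −0.13 to 0.24, edgeR adjusted p = 1). The change with BGJ398 alone was 0.19 ± 0.09 (adjusted p = 0.588). Of 17 other heme genes tested, 1 rose with FGF2 in DMSO, the heme synthesis enzyme Cpox (0.27 ± 0.06, adjusted p = 0.00830), and 0 fell (5.88%, against 13.4% of all genes).

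Over the 8 lists of metal genes together, 78 genes other than the 9 were tested. With FGF2 in DMSO 9 rose and 3 fell, 15.4% of the 78 against 13.4% of all genes. With BGJ398 in the presence of FGF2 7 rose and 10 fell, 21.8% against 22.2% of all genes. Under BGJ398 FGF2 changed 0 of the 78, and BGJ398 without FGF2 changed 1. Without the 3 libraries high in short genes 20 of 79 tested (25.3%, against 20.7% of all genes) passed with FGF2 in DMSO. With BGJ398 in the presence of FGF2 29 of 79 passed there (36.7%, against 29.3% of all genes). The shares of the whole lists over 12 libraries were close to those of all genes in both comparisons.

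**Figure D5:**
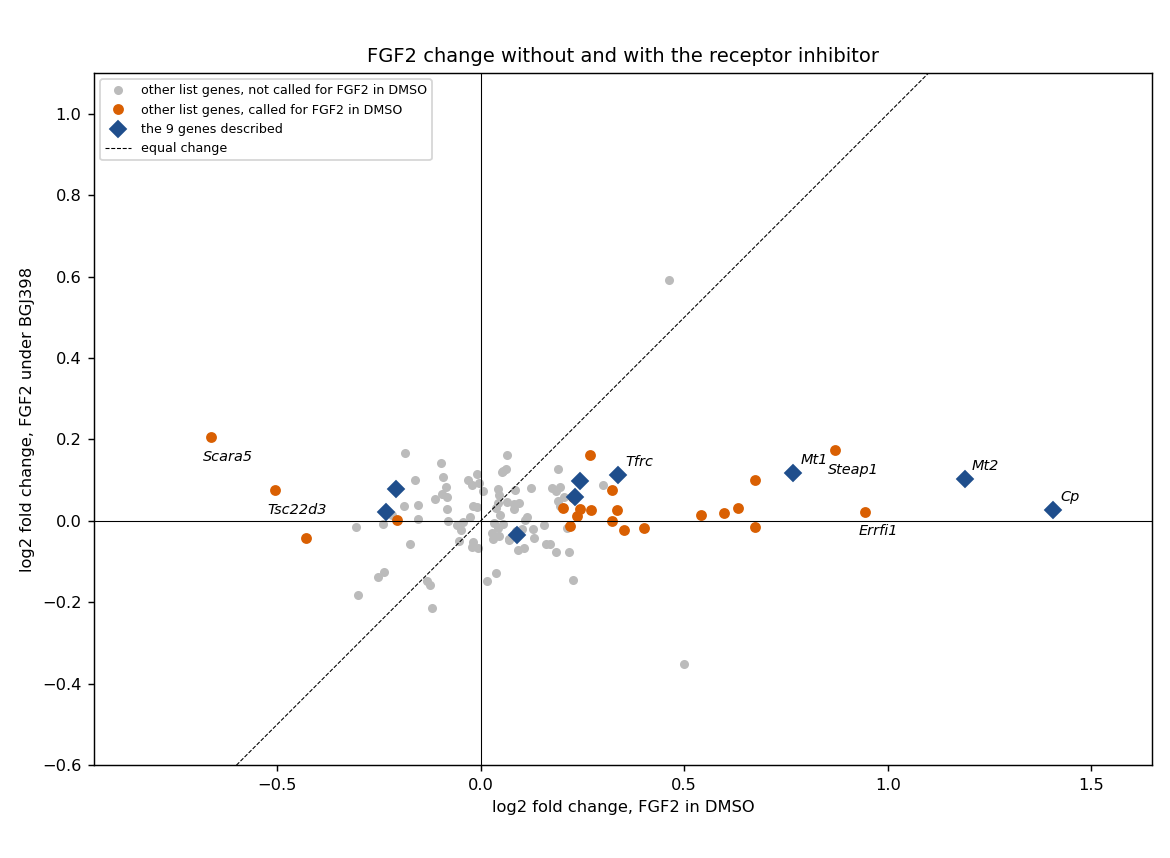
Log2 fold change with FGF2 in DMSO (horizontal axis) against that under BGJ398 (vertical axis), for the 9 genes (diamonds) and 111 other tested genes of the metal, oxidative stress, acute phase and glucocorticoid lists, of which 23 passed the test in DMSO. The horizontal values run from −0.66 to 1.41 and the vertical values from −0.35 to 0.59, and the 2 comparisons share no library.

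Metallothionein genes and Cp are also known to respond to oxidative stress, to cytokines acting through STAT3 and to glucocorticoids. Genes of those 3 kinds were measured in the same libraries. Whether any of the 3 had a part in the levels of Mt1, Mt2 and Cp was not tested. Of 18 genes listed as NRF2 and BACH1 targets, 2 rose and 0 fell with FGF2 in DMSO (11.1%, against 13.4% of all genes). These were Nfe2l2, which encodes NRF2 itself (0.23 ± 0.06, edgeR adjusted p = 0.0260), and the NRF2 inhibitor Keap1 (0.20 ± 0.06, adjusted p = 0.0499). No other gene of this list passed. The call of Nfe2l2 was lost without any one of 4 libraries, DMSO replicates 2 and 3 and DMSO+FGF2 replicates 1 and 2 (adjusted p up to 0.118), and that of Keap1 in 12 of 21 settings. In 8 of those 1 library was left out, namely DMSO replicate 1 or 2, BGJ398 replicate 2 or 3, DMSO+FGF2 replicate 1, 2 or 3, or BGJ398+FGF2 replicate 3 (adjusted p up to 0.183). Of 19 acute phase and STAT3 target genes listed, only 7 had enough reads to be tested. Among those 7, 4 rose and 0 fell (57.1%, against 13.4% of all genes). They were the complement component C3 (0.67 ± 0.08, adjusted p = 9.92e-05), the feedback inhibitor Socs3 (0.67 ± 0.09, adjusted p = 0.000262), the oncostatin M receptor Osmr (0.60 ± 0.08, adjusted p = 0.00028) and Stat3 itself (0.35 ± 0.05, adjusted p = 0.000296). With FGF2 present, BGJ398 lowered these 4 genes (57.1% of the 7, against 22.2% of all genes) in a comparison that shares the 3 DMSO+FGF2 libraries. The 4 calls held in all 21 other settings in each comparison.

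Of 9 glucocorticoid targets tested, 4 rose and 1 fell with FGF2 in DMSO (55.6%, against 13.4% of all genes). The receptor inhibitor Errfi1 rose from 59.9 to 115 CPM (0.94 ± 0.07, edgeR adjusted p = 9.96e-07). The phosphatase gene Dusp1 rose by 0.63 ± 0.09 (adjusted p = 0.000393) and the kinase gene Sgk1 by 0.32 ± 0.07 (adjusted p = 0.00688). Tsc22d3, which encodes the glucocorticoid-induced leucine zipper, fell by 0.51 ± 0.08 (adjusted p = 0.000623). Fkbp5 and Per1, which are also induced by glucocorticoids, had log2 changes of 0.07 ± 0.06 and −0.05 ± 0.08 (adjusted p of 0.475 and 0.724), and they are named here after their values were seen.

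The genes most like Mt1, Mt2 and Cp were found among 10361 tested protein-coding genes of at least 5 CPM by Pearson's r of log2 CPM over the 12 libraries, given as a description. The 12 libraries share the apart position of DMSO+FGF2, so a high r can rest on those 3 libraries. For Mt1 they were Grina (r = 0.992), Bsg (0.989), Hcfc1r1 (0.989), Mif (0.987) and Gadd45a (0.986). For Mt2 they were Ndrg1 (0.982), Glmp (0.981), Gadd45a (0.980), Anxa4 (0.979) and Grina (0.976). For Cp they were Hmga2 (0.994), Card10 (0.988), Myzap (0.986), Zcchc24 (0.984) and Mgat3 (0.983). Gadd45a and Grina stand in both metallothionein lists, and none of the 5 genes of Cp stands in either. Mt1 and Mt2 had r = 0.972 with each other, and Cp had r = 0.816 with Mt1 and 0.870 with Mt2. Hmga2, most like Cp, averaged 27.9 CPM in DMSO, 64.9 in DMSO+FGF2, 20.5 with BGJ398 and 20.3 with BGJ398+FGF2.

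The genes beside the metallothioneins were measured for comparison, in the order of the annotation. Bbs2, the nearest tested gene on one side, changed by 0.03 ± 0.08 with FGF2 in DMSO (edgeR adjusted p = 0.872), while Nup93 on the other side fell by 0.15 ± 0.05 (adjusted p = 0.0467). Herpud1, the third tested gene beyond Mt1, rose by 0.45 ± 0.09 (adjusted p = 0.00578). Hps3, which shares sequence with Cp, changed by −0.14 ± 0.11 (adjusted p = 0.455).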

How the data were processed

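RNA with poly(A) tails was sequenced in 12 libraries, and each came with one table of transcripts. Per the file headers, the deposited tables give an estimated read number (expected counts) and a TPM value for each transcript. The submitters' processing notes name Salmon and the build GRCm39, while neither versions nor any use of strand were given in those notes. Values were summed per gene with the transcript names of GENCODE M21 (GRCm38), which matched 114656 of 116178 transcripts to 35214 genes. The 1522 unmatched transcripts held 0.499% to 0.641% of reads and were left out.

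Rounded expected counts were fitted with edgeR 4.0.16 (R 4.3.3): filterByExpr, TMM scaling, 1 quasi-likelihood model of 4 group means over 12 libraries, and Benjamini-Hochberg adjustment over 12542 genes at 0.05. SEs and 95% intervals come from that model. For the interaction, the FGF2 change in DMSO was subtracted from the one with inhibitor. CPM values were computed by edgeR with library sizes scaled by TMM factors of 0.977 to 1.014, and compare a gene between libraries. Nothing says that replicates were separate cultures, so the spread behind each p-value may be technical. The biological coefficient of variation was 8.49%. In data simulated for FGF2 in DMSO over 12453 genes, 79% of 1.5-fold and 88% of 2-fold changes were recovered.

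The members and lists were chosen with earlier results of these data known. No p is given for the 9 genes in FGF2 in DMSO or the interaction, nor for Mt1, Mt2 and Cp where DMSO or DMSO+FGF2 libraries enter. All 9 were named, with up to 4 passing genes of smallest p per list and comparison, of which those that bear on the text are printed. Alternatives were RLE and upper quartile scaling, DESeq2 1.42.0, limma-voom 3.58.1, no filter, TPM scaled by length, only the groups compared, a replicate block, leaving out each library, and leaving out 3 libraries.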

Additional observations from a re-analysis of the deposited data

Results flagged for a closer look

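For 8 genes of the lists around the metallothioneins and Cp, the change with FGF2 differed between DMSO and BGJ398 by the interaction test (edgeR, adjusted over all genes). Among all genes tested, 4.24% passed. Only 1 of the 78 metal genes did (1.28%). The others came from the 7 acute phase and STAT3 genes tested (57.1% passed) and the 9 glucocorticoid targets tested (33.3%). Of the 18 NRF2 and BACH1 genes 0 passed. The values are the log2 change with FGF2 under BGJ398 minus that in DMSO. The zinc importer Slc39a13 had −0.419 ± 0.0901 (adjusted p = 0.0176). The acute phase and STAT3 genes had −0.375 ± 0.0689 for Stat3 (adjusted p = 0.00665), −0.69 ± 0.132 for Socs3 (adjusted p = 0.00849), −0.579 ± 0.117 for Osmr (adjusted p = 0.0121) and −0.573 ± 0.118 for C3 (adjusted p = 0.0132). The glucocorticoid targets had −0.923 ± 0.0954 for Errfi1 (adjusted p = 9.34e-05), −0.6 ± 0.132 for Dusp1 (adjusted p = 0.0199) and 0.581 ± 0.109 for Tsc22d3 (adjusted p = 0.00757).

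The calls of Stat3, Socs3, C3, Errfi1 and Tsc22d3 held in all 20 other settings. That of Slc39a13 was lost without DMSO replicate 2, DMSO+FGF2 replicate 3 or BGJ398+FGF2 replicate 1 and with TPM scaled by length (adjusted p up to 0.119). That of Osmr was lost with TPM scaled by length (adjusted p = 0.186). That of Dusp1 was lost without DMSO replicate 2 or 3 or DMSO+FGF2 replicate 1, with TPM scaled by length and without the 3 libraries high in short genes (adjusted p up to 0.0703).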

How the results depend on the processing

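With FGF2 in DMSO, Mt1, Mt2 and Cp kept their direction in all 21 other settings (0.67 to 0.85, 1.12 to 1.26 and 1.35 to 1.49). Genes passing with FGF2 in DMSO numbered 1680, 2611 without the 3 libraries high in short genes and 1018 to 2256 without 1 library. Under BGJ398 the count of 0 became 6 with no filter, 5 with DESeq2, 1 with only the groups compared, 4 without the 3 libraries and 0 to 1 without 1 library. For BGJ398 without FGF2, 41 became 83 with no filter, 153 with DESeq2, 12 with TPM scaled by length, 64 with only the groups compared, 730 without the 3 libraries and 9 to 104 without 1 library. With FGF2, 2782 became 1816 with TPM scaled by length, 1794 with only the groups compared and 1948 to 3345 without 1 library. For the interaction, 532 became 825 with DESeq2, 345 with TPM scaled by length, 1038 without the 3 libraries and 328 to 956 without 1 library, and a fit of only the groups compared gives no such value.

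Of the 78 metal genes (79 without the 3 libraries), 12 passed with FGF2 in DMSO, 7 with TPM scaled by length, 20 without the 3 libraries and 6 to 17 without 1 library. For BGJ398 without FGF2, 1 became 2 with DESeq2, 3 without the 3 libraries and 0 to 1 without 1 library. With FGF2, 17 became 29 without the 3 libraries and 10 to 28 without 1 library. For the interaction, 1 became 3 with no filter, 5 with DESeq2, 2 with limma-voom, 0 with TPM scaled by length, 5 without the 3 libraries and 0 to 4 without 1 library.

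Signs turned only for small changes. For FGF2 under BGJ398, TPM scaled by length gave 0.16 for Mtf1, −0.11 for Cp and −0.28 for Tfrc, and omission of the 3 libraries gave −0.073 for Mt2, 0.031 for Mtf1, −0.0042 for Slc40a1 and −0.0068 for Hmox1. It gave −0.057 for Hmox1 with BGJ398 in the presence of FGF2. Without 1 library, the FGF2 change under BGJ398 ran from −0.069 to 0.24 for Mt1, −0.13 to 0.27 for Mt2, −0.085 to 0.019 for Mtf1, −0.035 to 0.098 for Cp, −0.046 to 0.12 for Slc40a1 and −0.058 to 0.12 for Hmox1. BGJ398 without FGF2 ran from −0.13 to 0.0017 for Slc30a1, and with FGF2 from −0.10 to 0.080 for Hmox1. The cause was not tested.

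Replicate numbers did not pair the libraries: 2 of 18 same-numbered pairs had deviations with r over 0.1 (−0.146 to 0.239). With the replicate block, FGF2 passed for 1503 genes in DMSO (12 metal genes) and for 0 under BGJ398 (0). BGJ398 passed for 21 genes in the absence of FGF2 (1 metal gene) and for 2565 in its presence (16), and the interaction for 428 (1).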

Other observations

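The 4 coding transcripts Cp-201 to Cp-204 shared the TPM of Cp, and Mt1 and Mt2 came almost wholly from Mt1-201 and Mt2-201. The Mtf1 transcript with a retained intron, Mtf1-204, took 44.0% to 49.8% of the TPM of Mtf1 by group and 5.96% to 7.63% of its reads, so the TPM level of Mtf1 depends on a short transcript. A Tfrc transcript of 166 bases, Tfrc-203, held 20.7% ± 19.7 (SD, n = 3) of the TPM of Tfrc in BGJ398 and 0.0650% of its reads. Tfrc is therefore compared between groups by reads in the report.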
